A study of Mus musculus with 36 samples.

Results

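The comparison described here set CD4 T cells cultured in Th17 conditions against cells cultured in Treg conditions, both from wild-type (WT) mice. Its members were the 6 arrays labelled WT Th17 (replicates 1 to 3) and WT Treg (replicates 1 to 3), out of 36 arrays in the series. Per the labels' protocols, naive CD4 T cells of littermate WT and TRIM28KO mice were enriched magnetically, sorted by flow cytometry, and stimulated over 72 h through CD3 (antibody fixed to the plate) and CD28 (antibody in solution), which all stimulated groups here shared. The groups used were WT Th17 against WT Treg, the same conditions in cells of TRIM28KO mice (KO Th17 and KO Treg), and WT Th0 and WT naive cells for reference, with 3 arrays in each. The labels named no cytokine for any condition, no allele or Cre driver behind TRIM28KO, no age of the mice, and did not say whether the arrays of a group came from separate animals. The p-values therefore measure the spread between these samples, which may be technical, and 3 arrays a group limit the precision.

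Th17 cells are helper T cells that secrete IL-17A and IL-17F and are known for defence of mucosal surfaces and for autoimmune inflammation. Regulatory T (Treg) cells depend on the transcription factor Foxp3 and restrain other T cells. In culture both fates usually draw on TGF-β, with IL-6 favouring Th17 cells and IL-2 favouring Treg cells, so the comparison separates a pair of fates that share a signal. Cells on either path can carry features of the other.

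The values were the authors' log2 intensities. A gene's difference is WT Th17 minus WT Treg on that log2 scale, with its standard error (SE) in parentheses, from limma fitted to all 36 arrays. A gene was called higher or lower in Th17 cells at a Benjamini-Hochberg adjusted p under 0.05 over the 13082 genes tested, and a fold is 2 raised to the difference. Replicates correlated across genes at 0.987 to 0.994 in WT Th17 and at 0.981 to 0.993 in WT Treg cells. In bulk RNA, fewer cells of a kind and less RNA per cell cannot be told apart. No detection call was used, so a low level does not state that a transcript was absent.

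The labels fitted Il17a and Foxp3, but not every lineage marker. Il17f, Il21, Il23r, Itgae, Ikzf2, Ikzf4 and Nrp1 also went with the labels. Maf, a Th17 marker, was lower in Th17 cells, and Ctla4 and Tnfrsf18, Treg markers, were higher. Rora, Il2ra and Gpr83 were not called, and the groups overlapped for Ccr6. The values of these genes are given below. Il17a, which encodes the signature Th17 cytokine, measured 9.13, 8.78 and 8.0 in the 3 WT Th17 samples, against 4.17, 4.37 and 4.29 in the 3 WT Treg samples. Foxp3 measured 8.22, 6.33 and 6.74 in WT Th17 and 12.004, 12.24 and 12.35 in WT Treg samples. Neither gene's groups overlapped, and the directions were those of the labels. Foxp3 was also high in WT Th0 cells, with a mean of 10.90, and was 7.33 in WT naive cells, so its high level was shared by Treg and Th0 conditions. Trim28, the gene targeted in the KO mice, measured 6.33, 6.26 and 6.42 in KO Th17 and 6.22, 6.40 and 6.21 in KO Treg samples, against 9.98, 9.70 and 9.74 in WT Th17 and 9.53, 9.21 and 9.33 in WT Treg samples, so all 6 KO samples lay below all 6 WT samples.

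Over all genes the conditions differed widely. Of 13082 genes, 7077 (54.1%) were called, 3734 (28.5%) higher and 3343 (25.6%) lower in Th17 cells, with a median difference over all genes of -0.0038. At a difference of 2-fold or more, 1339 genes (10.2%) were higher and 606 (4.63%) lower, so the larger differences lay mostly on the Th17 side. Beyond 16-fold, 45 genes (0.344%) were higher and 16 (0.122%) lower. The 3 samples of one condition lay beyond all 3 of the other for 7899 genes (60.4%). With cyclic loess scaling 63.4% of the called genes were higher and 36.6% lower, against 52.8% and 47.2% as deposited, so the balance of small differences depends on the scaling.

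**Figure D1:**
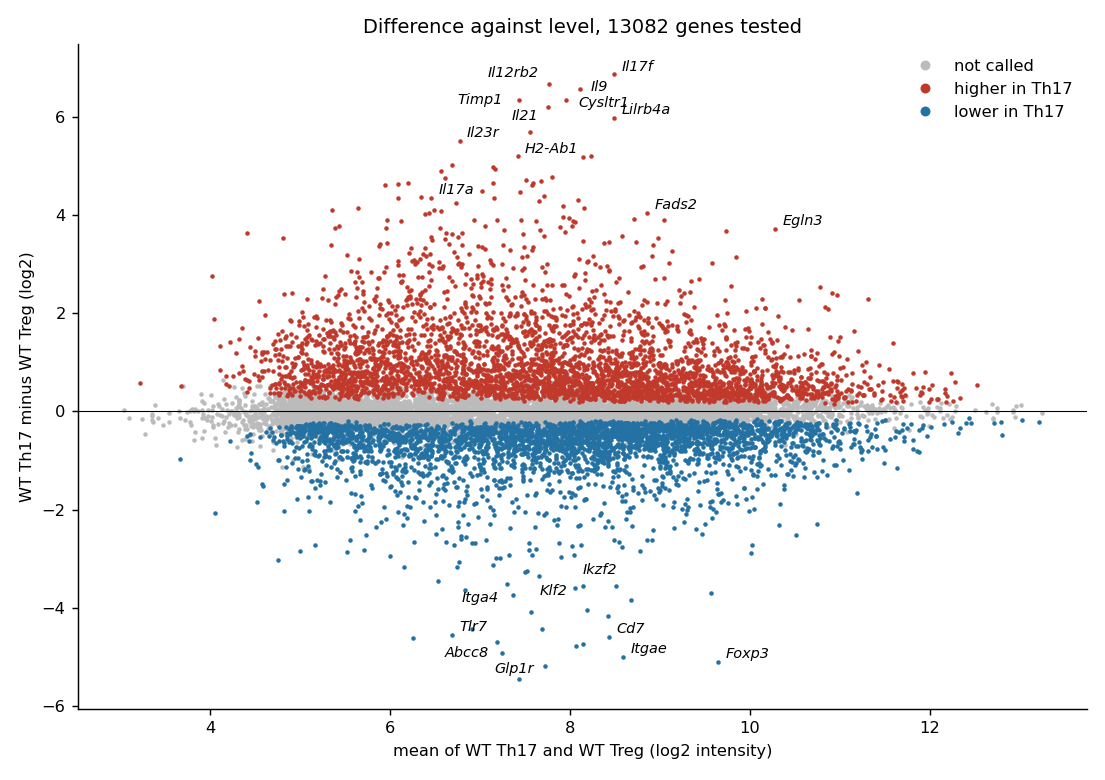
Each point is 1 of the 13082 genes tested, with the mean log2 intensity of the WT Th17 and WT Treg groups on the x axis and WT Th17 minus WT Treg (log2) on the y axis. Red points were called higher and blue points lower in Th17 cells, and grey points were not called. Il17f stands highest at 6.88, and Glp1r, Foxp3 and Itgae lie near the bottom at -5.18, -5.10 and -5.01; the unnamed point below them carries an uncharacterised Gm symbol.

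Genes for Th17 cytokines were higher in Th17 cells nearly throughout. Of 11 tested members of the list of Th17 cytokines and related factors, 10 were higher in Th17 cells and none was lower, against 28.5% higher and 25.6% lower among all genes. Their median difference was 3.11, and that of all genes was -0.0038. Against WT Th0 cells the same list had a median of 3.37 in Th17 and 0.01 in Treg cells, values that share the Th0 samples.

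The promoters of Il17a, Il17f and the receptor gene Il23r are shown because their genes define the Th17 side and because each holds AGGTCA, the letters of a half-site that several nuclear receptors bind. The sequences are from RefSeq on GRCm38.p6, the 250 bases before each annotated start, 5′ to 3′ on the gene's strand, with matches on either strand in capitals. This choice was made after the values were seen.
Il17a (chr1:20730655-20730904, plus strand): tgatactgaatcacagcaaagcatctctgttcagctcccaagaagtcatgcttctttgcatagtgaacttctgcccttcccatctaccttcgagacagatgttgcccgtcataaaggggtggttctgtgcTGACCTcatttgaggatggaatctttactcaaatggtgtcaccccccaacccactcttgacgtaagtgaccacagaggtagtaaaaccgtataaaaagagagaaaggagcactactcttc
Il17f (chr1:20784271-20784520, minus strand): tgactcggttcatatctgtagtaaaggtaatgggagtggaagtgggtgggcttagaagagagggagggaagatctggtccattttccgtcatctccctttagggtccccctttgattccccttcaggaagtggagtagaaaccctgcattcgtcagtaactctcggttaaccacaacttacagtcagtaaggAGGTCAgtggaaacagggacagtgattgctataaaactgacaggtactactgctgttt
Il23r (chr6:67491856-67492105, minus strand): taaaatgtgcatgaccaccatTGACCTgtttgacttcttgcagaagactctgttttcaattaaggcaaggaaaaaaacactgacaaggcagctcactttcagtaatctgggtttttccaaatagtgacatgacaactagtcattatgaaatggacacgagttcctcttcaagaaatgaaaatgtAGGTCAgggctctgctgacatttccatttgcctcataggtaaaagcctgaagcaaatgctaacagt
The match in Il17a began at position -120 on the opposite strand (TGACCT as printed), the match in Il17f at -58, and those in Il23r at -229 and -66, where -1 is the base before the start. AGGTCA on either strand occurred in 15.8% of 27025 promoters of this length, in 12.9% of those of tested genes, in 150 of 1069 genes higher by 2-fold or more in Th17 cells, and in 66 of 468 genes lower by as much. A match is a description of letters and not a binding site.

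Il17f measured 12.21, 11.77 and 11.81 in WT Th17 samples, against 5.17, 5.32 and 4.67 in WT Treg samples. It was 118-fold higher, with a difference of 6.88 (SE 0.23, limma adjusted p = 2.24e-19), and held the highest difference among all genes tested. Il17a, its neighbour on chromosome 1, was 20.5-fold higher at 4.36 (SE 0.19, limma adjusted p = 5.74e-17). Their Th0 means were close to the Treg levels, at 4.97 and 4.11, and for both genes every Th17 sample lay at least 3 log2 units above every Treg sample.

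Il21, whose product acts back on Th17 cells and on B cells, measured 10.89, 10.76 and 10.90 in WT Th17 samples, against 4.83, 4.64 and 4.49 in WT Treg samples. The groups lay 6.20 apart (SE 0.28, limma adjusted p = 1.39e-16) and the Th17 samples agreed closely. Il9, a cytokine made by several helper subsets, measured 12.18, 10.44 and 11.58 in WT Th17 samples, against 4.86, 4.93 and 4.68 in WT Treg samples. Its Th17 samples spread over more than a log2 unit, and the difference was 6.57 (SE 0.53). Il24, which encodes a cytokine of the IL-10 family, followed at 5.71 (SE 0.34).

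Smaller but called differences were those of Csf2 at 2.72 (SE 0.32), which encodes GM-CSF, Ccl20 at 2.69 (SE 0.23), the ligand of the receptor CCR6, and Lif at 2.58 (SE 0.41), a cytokine of the IL-6 family. Csf2 had 2 probe sets, and with their mean its difference was 1.31. Il10, which encodes an anti-inflammatory cytokine made by Treg and Th17 cells, measured 7.72, 5.90 and 5.85 in WT Th17 samples, against 4.41, 4.54 and 4.80 in WT Treg samples. The groups did not overlap, but Th17 replicate 1 stood well above the other two, and without it the difference of 1.91 became 1.29 (limma adjusted p = 0.0134). Tnf, the member not called, differed by 0.34 (limma adjusted p = 0.31) and its groups overlapped; without Treg replicate 1 the difference was 0.76 (limma adjusted p = 0.0131).

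**Figure D2:**
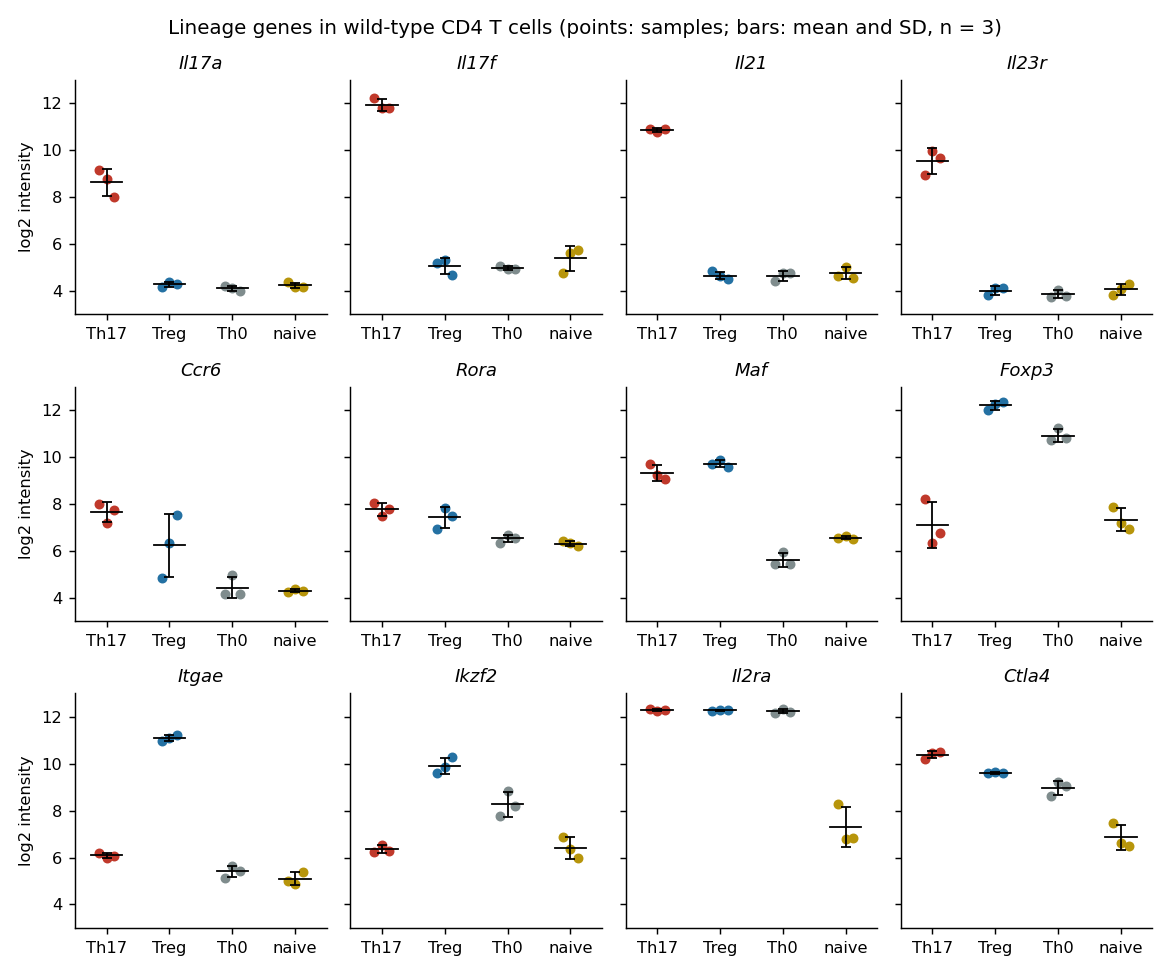
Log2 intensity (y axis) of 12 lineage genes in WT Th17, WT Treg, WT Th0 and WT naive cells (x axis), where points are samples and bars are the mean and SD of 3. Il17a, Il17f, Il21 and Il23r are high in Th17 cells alone among the 4 groups drawn, Itgae is high in Treg cells alone, Foxp3 and Ikzf2 are highest in Treg cells and next highest in Th0 cells, and Il2ra is level across the 3 stimulated groups.

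Receptors for the cytokines that sustain Th17 cells were higher in Th17 cells, while the chains of the IL-6 receptor were lower. Of 16 tested genes in the list of Th17 receptors and surface genes, 11 were higher and 4 lower, with a median difference of 1.17. Il23r, which encodes the specific chain of the IL-23 receptor, measured 8.92, 9.98 and 9.68 in WT Th17 samples, against 3.81, 4.12 and 4.11 in WT Treg samples. It was 45.8-fold higher at 5.52 (SE 0.22, limma adjusted p = 6.7e-18). Il12rb1, its partner chain, which it shares with the IL-12 receptor, was 15.3-fold higher at 3.94 (SE 0.24). Il1r1, the signalling receptor for IL-1, which promotes Th17 cells, also stands in the Th17 cytokine list. It measured 7.31, 7.49 and 6.82 in WT Th17 samples, against 3.99, 4.20 and 4.11 in WT Treg samples, a difference of 3.11 (SE 0.20). Il1r2, which encodes the decoy receptor for IL-1, was higher too, at 4.38 (SE 0.38), although its Treg samples spread over 4.19, 5.57 and 6.78. Without Treg replicate 1 the difference was 3.72, without Treg replicate 3 it was 5.02, and with array weights 3.70.

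Il6ra and Il6st, which encode both chains of the IL-6 receptor, went the other way. Il6ra measured 10.16, 10.26 and 10.19 in WT Th17 samples, against 11.38, 11.52 and 11.62 in WT Treg samples. Il6st measured 8.78, 8.92 and 8.79 in WT Th17 samples, against 10.68, 10.70 and 10.68 in WT Treg samples. The differences were -1.31 (SE 0.13) and -1.86 (SE 0.11), and neither gene's groups overlapped. The Treg levels of these genes were close to those of naive cells, at 11.36 and 10.95. S1pr1, the receptor that lets T cells leave lymph nodes, was lower at -1.79 and Cd9, a tetraspanin, at -0.62.

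Of the other receptors in this list, Cxcr6 and Ccr4, receptors for chemokines, were higher at 1.89 and 1.41, Il17re, a subunit of the IL-17C receptor, at 1.86, Il21r at 0.75, the drug transporter gene Abcb1b at 1.33, Slamf6 at 1.01 and Tnfrsf13b, which encodes TACI, at 0.99. Ccr6, the chemokine receptor commonly used to mark Th17 cells, measured 8.01, 7.16 and 7.75 in WT Th17 samples, against 4.86, 6.32 and 7.51 in WT Treg samples. Its Treg samples ran from far below the Th17 samples to inside their range, so the groups overlapped. The difference was 1.41 (SE 0.40, limma adjusted p = 0.00399). Without Treg replicate 1 it was 0.73 (limma adjusted p = 0.0836), and a fit of the 6 samples alone with the replicate number as a block put the limma adjusted p at 0.0645. Il17rb was not called, at -0.57 (limma adjusted p = 0.0587), but was in that blocked fit of the 6 samples, at 0.018.

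Transcription factors of the Th17 programme were mixed. Of 15 tested, 9 were higher (60.0%) and 3 lower (20.0%), against 28.5% and 25.6% of all genes, with a median of 0.95. Fosl2, an AP-1 subunit, measured 10.83, 11.22 and 10.95 in WT Th17 samples, against 6.82, 7.17 and 7.29 in WT Treg samples, a difference of 3.90 (SE 0.21). Irf4, which with Batf opens Th17 loci, measured 11.56, 11.30 and 11.39 in WT Th17 samples, against 7.72, 8.58 and 8.49 in WT Treg samples, a difference of 3.15 (SE 0.32). Batf itself was higher at 1.98 (SE 0.17). Hif1a, the oxygen-regulated factor that also drives glycolytic genes, differed by 2.13 (SE 0.10) with Th17 samples within 0.1 of each other. Nfil3, Bcl3, Ahr, Bhlhe40 and Stat3 were higher by 2.06, 1.87, 1.02, 0.95 and 0.45. None of the 9 called higher overlapped between the groups, which was also so for 60.4% of all genes tested.

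The factors called lower were Ikzf3, which encodes Aiolos, at -1.89 (SE 0.18), Runx1 at -0.84 (SE 0.11), and Maf at -0.39 (SE 0.16). Maf measured 9.69, 9.23 and 9.04 in WT Th17 samples, against 9.70, 9.86 and 9.57 in WT Treg samples, and was far below both in Th0 cells, with a mean of 5.62. Its groups overlapped and its call (limma adjusted p = 0.0402) did not hold without Th17 replicate 2 or 3 or Treg replicate 1 or 2 (adjusted p 0.115, 0.241, 0.0696 and 0.149), with the block in the 6 samples alone (0.0607), or with cyclic loess (0.227). Rora, which encodes a nuclear receptor, measured 8.03, 7.47 and 7.77 in WT Th17 samples, against 6.94, 7.83 and 7.5 in WT Treg samples. It was not called at 0.34 (limma adjusted p = 0.142), its groups overlapped, and without Treg replicate 2 the difference was 0.54 (limma adjusted p = 0.027). Prdm1 at 0.05 and Nfkbiz at -0.54 were not called; with the block in all 36 samples Nfkbiz had a limma adjusted p of 0.0442.

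Genes of the Treg core list did not separate the cultures in a common direction. Of 32 tested, 12 were lower (37.5%) and 14 higher (43.8%) in Th17 cells, against 25.6% and 28.5% of all genes. The median difference was 0.03, close to that of all genes. The list sets no expected direction for its members, so these counts do not measure Treg identity. The members lower in Th17 cells included Foxp3, Ikzf2 and Itgae, and those higher included several receptors of the TNF family and Ctla4, which activated T cells of other kinds are also known to express.

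Foxp3 was 34.3-fold lower in Th17 cells, at -5.10 (SE 0.35, limma adjusted p = 1.02e-12), and Th17 replicate 1 stood above the other Th17 samples. Itgae, the integrin chain CD103 that binds E-cadherin and is induced by TGF-β, measured 6.19, 5.996 and 6.08 in WT Th17 samples, against 10.98, 11.08 and 11.23 in WT Treg samples. It was 32.2-fold lower at -5.01 (SE 0.20), and its mean was 5.41 in Th0 cells. Ikzf2, which encodes Helios, measured 6.22, 6.55 and 6.29 in WT Th17 samples, against 9.62, 9.86 and 10.29 in WT Treg samples, a difference of -3.57 (SE 0.29). Its Th0 mean of 8.27 lay between the groups.

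Further members lower in Th17 cells were the factor genes Foxp1 at -2.29, Ikzf4 at -0.88 and Foxo1 at -0.74, the chemokine receptor gene Ccr8 at -1.68, and Nrp1, which encodes neuropilin-1, at -1.35. Entpd1 and Nt5e, which encode CD39 and CD73, the enzymes that turn extracellular ATP into adenosine, were lower at -1.47 (SE 0.25) and -0.77 (SE 0.20). Fgl2, a secreted suppressive protein, was lower at -1.53 (limma adjusted p = 0.0125; 0.055 without Treg replicate 2). Itgb8, the integrin chain that activates TGF-β, measured 4.75, 4.95 and 4.92 in WT Th17 samples, against 4.53, 6.09 and 7.05 in WT Treg samples. Its groups overlapped, and its difference of -1.02 was -0.44 without Treg replicate 3 (limma adjusted p = 0.282), -1.70 without Treg replicate 1 (2.06e-05), and lost its call without Th17 replicate 1 (0.056), without Treg replicate 2 (0.0665) and with the block in the 6 samples alone (0.0786).

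On the Th17 side of the Treg list, Tnfrsf9, which encodes 4-1BB, measured 11.54, 11.60 and 11.59 in WT Th17 samples, against 6.71, 8.26 and 8.74 in WT Treg samples, a difference of 3.68 (SE 0.55); without Treg replicate 1, the lowest sample, it was 3.08. Ebi3, a subunit of IL-27 and IL-35, was higher at 2.57 (SE 0.18), or 1.51 with the mean of its 2 probe sets. Gzmb, which encodes granzyme B, was higher at 2.42 (SE 0.70), yet its Th0 mean of 10.40 was far above the 6.12 of Th17 cells. Selp (P-selectin) was higher at 2.30, the phosphatase gene Dusp4 at 2.28, Swap70 at 2.01, Pde3b at 1.496, and the inhibitory receptor gene Tigit at 1.24. Izumo1r, which encodes folate receptor 4, Tnfrsf4 (OX40), Tnfrsf18 (GITR), Ctla4 and Satb1 were higher by 1.19, 1.12, 0.47, 0.77 and 1.11.

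Il2ra, the high-affinity IL-2 receptor chain, measured 12.33, 12.26 and 12.29 in WT Th17 samples, against 12.24, 12.28 and 12.31 in WT Treg samples. It was not called (difference 0.02, limma adjusted p = 0.958), the groups overlapped, and all stimulated samples drawn lay far above naive cells, whose mean was 7.30. Lrrc32, which encodes the TGF-β docking receptor GARP, was not called at -0.41 (limma adjusted p = 0.463), and neither were Socs2 at -0.30, Gpr83 at -0.28, Capg at 0.38 and Bach2 at 0.03. With the block in the 6 samples alone Socs2 and Capg passed, at limma adjusted p 0.0332 and 0.0307.

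Lists of other helper lineages held genes called in both directions. In the Th1 list 8 of 19 were higher and 3 lower, in the Th2 list 9 of 14 and 3, and in the Tfh list 11 of 13 and 1, with median differences of 0.40, 1.21 and 1.01. Among all genes tested 28.5% were higher and 25.6% lower; the shares were 42.1% and 15.8% for Th1, 64.3% and 21.4% for Th2, and 84.6% and 7.69% for Tfh genes. Il12rb2, the IL-12 receptor chain that marks Th1 cells, measured 10.88, 11.22 and 11.20 in WT Th17 samples, against 4.39, 4.13 and 4.75 in WT Treg samples. It was 102-fold higher at 6.68 (SE 0.31, limma adjusted p = 2.89e-16). Its Th0 mean was 8.83, so the Treg samples lay below Th0 as well as below Th17. The master factor Tbx21 (T-bet) differed by 0.37 and Ifng by -0.01, and neither was called (limma adjusted p = 0.191 and 0.993).

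Gata3, the master factor of Th2 cells, measured 6.65, 7.12 and 7.02 in WT Th17 samples, against 8.41, 9.07 and 9.09 in WT Treg samples. It was lower at -1.92 (SE 0.17), whereas Il4 was higher at 1.85 (SE 0.19) from a Treg mean of 3.98, and the Th0 mean of Gata3 was 8.64. In the Tfh list Cd200, an inhibitory ligand, was higher at 3.40 (SE 0.37) and Slamf6 at 1.01, and Tox was the member called lower, at -2.06 (SE 0.26).

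**Figure D3:**
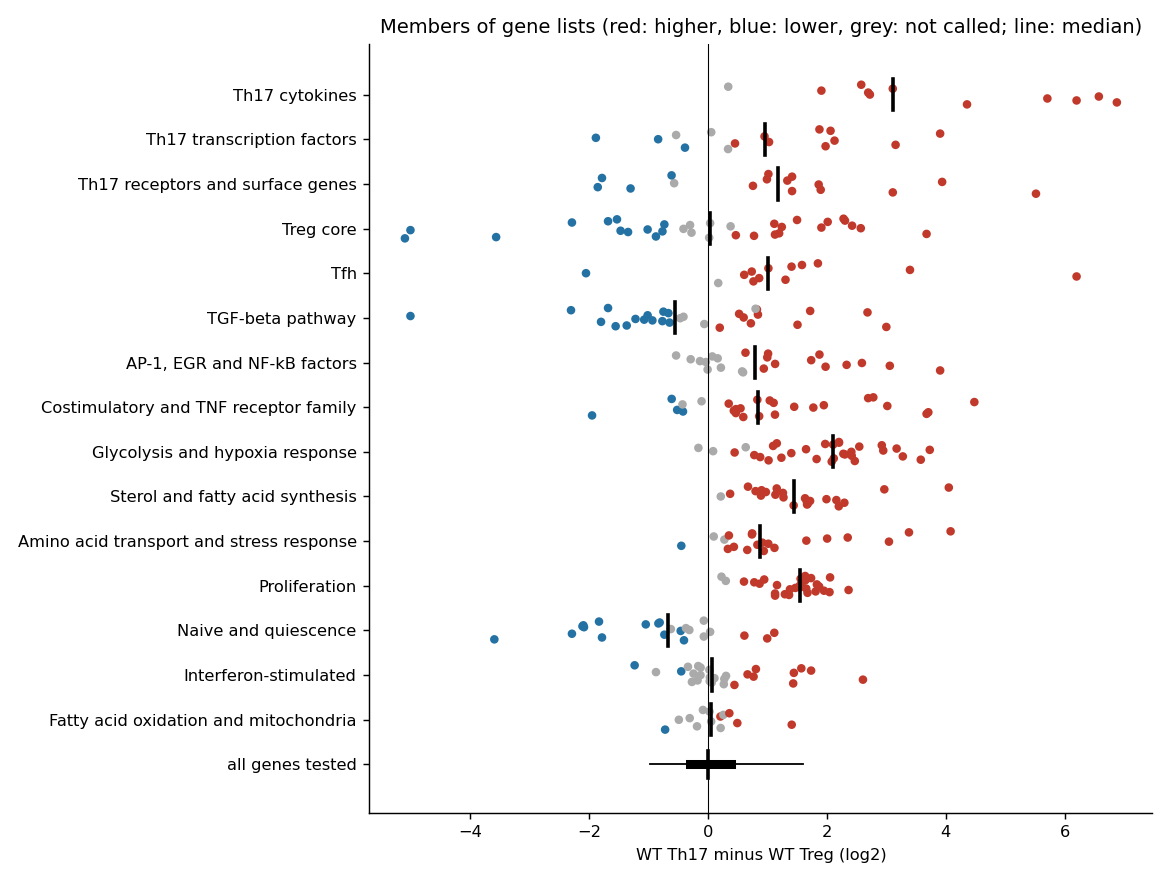
Each point is a tested member of a gene list, placed by WT Th17 minus WT Treg (log2, x axis), with red points called higher, blue points lower and grey points not called; black lines mark list medians. The bottom row gives all 13082 genes as the median, the interquartile range (thick bar) and the 5th to 95th percentile (thin line). Medians run from -0.68 for naive and quiescence genes to 3.11 for Th17 cytokines, and the Treg core list spreads to both sides of 0.

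More genes of the TGF-β pathway were lower than higher in Th17 cells. Of 28 tested members, 14 were lower in Th17 cells and 10 higher (35.7%), with a median of -0.56. The shares of all genes tested were 25.6% lower and 28.5% higher, so the count of higher members is no result about the list. Against Th0 the medians were 0.47 for Th17 and 0.92 for Treg cells, which share the Th0 samples. Some members, Itgae, Itgb8, Lrrc32 and Ccr8, also belong to the Treg core list. Ldlrad4, which encodes an inhibitor of TGF-β signalling, measured 9.70, 8.97 and 8.82 in WT Th17 samples, against 11.41, 11.37 and 11.64 in WT Treg samples, a difference of -2.31 (SE 0.19). Smad7, the inhibitory SMAD that TGF-β induces, was lower at -1.80, and the receptor genes Tgfbr1 and Tgfbr2 at -1.56 and -1.37; these 3 were chosen after their values were seen. Higher in Th17 cells were a ligand and a co-receptor: Tgfb3, at 9.32, 9.42 and 9.0 in WT Th17 samples against 6.66, 6.33 and 5.75 in WT Treg samples, with a difference of 2.998 (SE 0.31), and Eng (endoglin) at 2.68 (SE 0.22).

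In the retinoic acid response 4 of 13 tested members were higher and 4 lower, with a median of 0.07. Both shares, 30.8%, are near those of all genes tested, so the counts are no result about the list. Tgm2, the transglutaminase that retinoic acid induces, was 36.7-fold higher at 5.20 (SE 0.41), Gpr15, a gut-homing receptor, was higher at 3.34 (SE 0.27) and Crabp2, which carries retinoic acid in the cell, at 3.01 (SE 0.49). Itga4, the integrin chain of α4β7 that retinoic acid also raises in T cells, measured 5.53, 5.37 and 5.56 in WT Th17 samples, against 9.01, 9.22 and 9.47 in WT Treg samples, a difference of -3.75 (SE 0.20). Of the 5 tested genes of the aryl hydrocarbon receptor response, Ahr was higher and Cyp1a1, its standard target, was lower at -1.41 (SE 0.25).

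Genes of glycolysis, of lipid synthesis and of amino acid supply were higher in Th17 cells nearly throughout their lists. In the list of glycolysis and hypoxia response 28 of 31 were higher (90.3%) and none lower, with a median of 2.10. Among all genes tested 28.5% were higher and 25.6% lower. Against Th0 the list had a median of 1.03 in Th17 and -0.73 in Treg cells, which share the Th0 samples. Egln3, an oxygen-sensing prolyl hydroxylase that HIF-1 induces, measured 12.22, 12.05 and 12.16 in WT Th17 samples, against 7.54, 8.87 and 8.84 in WT Treg samples. Hk2, the hexokinase that commits glucose to glycolysis, measured 9.19, 9.70 and 9.60 in WT Th17 samples, against 5.87, 5.996 and 5.89 in WT Treg samples. Neither gene's groups overlapped, and the differences were 3.73 (SE 0.30, limma adjusted p = 3.35e-11) and 3.58 (SE 0.19, limma adjusted p = 3e-15). Aldoc, an aldolase, was higher at 3.28 and Vegfa, the vascular growth factor, at 3.17; Car12 at 0.63, Pdk1 at 0.08 and Car9 at -0.16 were the members not called.

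The promoters of Egln3 and of Bnip3, a mitochondrial gene that hypoxia induces, are shown because their genes carry this difference and hold ACGTG, the core letters of the hypoxia response element, which also lie inside the E-box CACGTG. They were chosen after the values were seen, and are drawn as above.
Egln3 (chr12:54203875-54204124, minus strand): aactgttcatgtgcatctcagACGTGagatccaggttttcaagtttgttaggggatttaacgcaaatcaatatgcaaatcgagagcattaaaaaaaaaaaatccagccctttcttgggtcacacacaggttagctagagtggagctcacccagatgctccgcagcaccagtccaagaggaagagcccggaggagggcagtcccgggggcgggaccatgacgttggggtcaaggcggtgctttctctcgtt
Bnip3 (chr7:138909507-138909756, minus strand): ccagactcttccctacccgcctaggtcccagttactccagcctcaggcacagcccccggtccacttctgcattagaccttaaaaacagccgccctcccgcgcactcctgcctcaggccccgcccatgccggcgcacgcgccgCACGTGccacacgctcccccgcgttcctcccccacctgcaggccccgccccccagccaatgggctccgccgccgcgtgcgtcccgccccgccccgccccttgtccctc
The match in Egln3 began at position -229, and in Bnip3 overlapping matches on opposite strands began at -108 and -107. Bnip3 was higher in Th17 cells at 2.95 (SE 0.15). ACGTG on either strand occurred in 18.5% of all 27025 promoters and in 24.5% of those of tested genes. It occurred in 26.2% of genes higher by 2-fold or more and 20.3% of those lower. Of 29 glycolysis and hypoxia genes with a promoter, 18 held it (62.1%). That list was drawn up to include hypoxia response genes, so this share describes the choice of list and not these data. Of the other motifs searched on both strands, TTCNNNGAA, the STAT palindrome, occurred in 6.92% of genes higher by 2-fold or more and 7.18% of tested genes, and TCACNCCAC, a sterol element, in 1 of 18 sterol genes and 1.25% of tested genes.

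In the list of sterol and fatty acid synthesis 22 of 23 were higher (95.7%) and none lower, with a median of 1.44. Among all genes tested 28.5% were higher and 25.6% lower. Fads2, the delta-6 desaturase, measured 10.89, 10.76 and 10.996 in WT Th17 samples, against 6.46, 6.53 and 7.51 in WT Treg samples, a difference of 4.05 (SE 0.56). Scd1, the stearoyl-CoA desaturase, differed by 2.96, and the mevalonate pathway genes Fdps and Hmgcs1 by 2.29 and 2.20. The Th0 means of Fads2, Fdps and Hmgcs1, at 10.67, 11.09 and 10.21, were close to those of Th17 cells, at 10.88, 11.28 and 10.16, and the list's median against Th0 was 0.21 in Th17 and -1.13 in Treg cells.

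Genes of amino acid transport and stress response were higher in 17 of 20 cases (85.0%) and lower in 1 (5.0%), with a median of 0.87. Asns (asparagine synthetase) differed by 3.04 (SE 0.41), Psat1, an enzyme of serine synthesis, by 2.35, the stress factor gene Atf3 by 3.38, and Vldlr, a lipoprotein receptor gene, by 4.08. In the list of fatty acid oxidation and mitochondria 4 of 13 were higher (30.8%) and 1 lower (7.69%). Among all genes tested 28.5% were higher and 25.6% lower, so the count of higher members is no result about the list. Its median was 0.05, and 2 members were higher without Th17 replicate 3 or without Treg replicate 2. Cpt1a, which moves fatty acids into mitochondria, was the member called lower, at -0.72 (SE 0.11), and Acadl, an acyl-CoA dehydrogenase, was higher at 1.41.

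Cell cycle genes were also higher in Th17 cells. In the proliferation list 27 of 29 were higher in Th17 cells (93.1%) and none lower, with a median of 1.55. Among all genes tested 28.5% were higher and 25.6% lower. Aurkb, a mitotic kinase, measured 10.58, 10.25 and 10.40 in WT Th17 samples, against 8.42, 7.75 and 7.98 in WT Treg samples, and its groups did not overlap. Mki67, which encodes the marker Ki-67, measured 11.14, 10.99 and 11.16 in WT Th17 samples, against 10.36, 9.65 and 9.90 in WT Treg samples. The differences were 2.36 (SE 0.42, limma adjusted p = 2.34e-05) and 1.13 (SE 0.42, limma adjusted p = 0.0236). The call of Mki67 did not hold without Th17 replicate 1 or 3 or Treg replicate 2 or 3, with adjusted p of 0.0543, 0.0576, 0.0909 and 0.0583. Both conditions had lower levels than Th0 cells, with list medians of -0.58 for Th17 and -2.17 for Treg cells, and the part of cell division in the metabolic lists was not tested.

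Immediate responses to receptor stimulation differed too, and here 1 sample stood apart. In the list of AP-1, EGR and NF-kB factors 12 of 22 were higher (54.5%) and none lower, with a median of 0.78. Among all genes tested 28.5% were higher and 25.6% lower. Nr4a1, an orphan receptor gene switched on by T cell receptor signals, measured 10.86, 11.24 and 11.16 in WT Th17 samples, against 6.16, 8.91 and 9.13 in WT Treg samples. Egr3 measured 8.73, 9.39 and 9.50 in WT Th17 samples, against 5.53, 7.18 and 7.15 in WT Treg samples. In both genes Treg replicate 1 lay more than a log2 unit below the other Treg samples, and the groups did not overlap with or without it. The difference of Nr4a1 was 3.02 (SE 0.73), or 2.07 without Treg replicate 1 (limma adjusted p = 0.017), and that of Egr3 was 2.59 (SE 0.55).

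The same sample was the lowest Treg sample for Nr4a3, at 6.11, 8.08 and 8.32, against 9.35, 9.49 and 9.54 in Th17 samples, and without it the difference of 1.96 was 1.26 (limma adjusted p = 0.103). Batf3, an AP-1 partner, did not depend on it: it measured 7.82, 8.02 and 8.37 in WT Th17 samples, against 5.04, 4.96 and 5.04 in WT Treg samples, a difference of 3.06 (SE 0.38). Egr1 differed by 2.33 (SE 0.59). Il2 measured 7.09, 6.56 and 7.53 in WT Th17 samples, against 3.94, 4.35 and 4.33 in WT Treg samples, a difference of 2.85 (SE 0.62). All 3 Th17 samples lay above all 3 Treg samples. Foxp3 is known to repress Il2, and the part of Foxp3 in this difference was not tested.

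More chemokines and chemokine receptors were higher than lower in Th17 cells. Of 10 tested chemokines 7 were higher and 1 lower, with a median of 1.48. Of 19 chemokine receptors 10 were higher (52.6%) and 5 lower (26.3%), with a median of 0.76. The shares of all genes tested were 28.5% higher and 25.6% lower, so the count of lower receptors is no result about that list. With a stricter filter on low values 3 chemokines were called higher, and without Th17 replicate 2 the chemokine receptors called lower were 3. Xcl1 (lymphotactin), the chemokine called lower, measured 5.43, 4.19 and 4.80 in WT Th17 samples, against 6.31, 9.35 and 9.13 in WT Treg samples. Its groups did not overlap, although Treg replicate 1 was far below the others, and the difference was -3.46 (SE 0.76), or -4.43 without that sample. Ccl3 showed the reverse arrangement at 10.26, 9.79 and 10.42 in WT Th17 samples, against 4.76, 7.74 and 7.62 in WT Treg samples, and its difference of 3.45 (SE 1.15) was 2.47 without Treg replicate 1, with a limma adjusted p of 0.0973. Ccl5 differed by 2.18 (SE 0.61), or 1.56 without that sample (limma adjusted p = 0.0417).

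Ccr2, a receptor for monocyte chemoattractants, measured 7.27, 8.71 and 7.79 in WT Th17 samples, against 4.22, 3.69 and 4.11 in WT Treg samples, a difference of 3.91 (SE 0.39). Ltb4r1, the leukotriene B4 receptor, differed by 3.90 (SE 0.20) and Gpr183, the oxysterol receptor EBI2, by 3.35 (SE 0.32). The Th0 means of Ccr2 and Gpr183, at 7.68 and 8.63, were near those of Th17 cells, at 7.92 and 9.26, while that of Ltb4r1, at 5.22, was near the Treg mean of 5.23.

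Integrins and other adhesion genes were called in both directions. Of 22 tested, 12 were higher (54.5%) and 8 lower (36.4%), against 28.5% and 25.6% of all genes. Itga3, a laminin-binding integrin chain, measured 9.81, 10.58 and 10.35 in WT Th17 samples, against 5.77, 6.02 and 6.02 in WT Treg samples, a difference of 4.31 (SE 0.16). Itga7, likewise a laminin-binding chain, was 36.5-fold higher at 5.19 (SE 0.32). Itgb3, the chain of the vitronectin receptor, was lower at -2.93 (SE 0.19), beside Itgae and Itga4.

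Costimulatory genes were mostly higher, 20 of 26 (76.9%) with 4 lower (15.4%) and a median of 0.84. Inhibitory receptors were likewise mostly higher, 10 of 16 (62.5%) with 3 lower (18.8%) and a median of 0.68. Among all genes tested 28.5% were higher and 25.6% lower. Slamf7 differed by 4.48 (SE 0.23), Tnfrsf8 (CD30) by 3.71 (SE 0.24) and Tnfsf14 (LIGHT) by 3.01 (SE 0.23). Lag3, an inhibitory receptor that binds MHC class II, measured 7.98, 8.86 and 8.75 in WT Th17 samples, against 4.59, 5.01 and 5.31 in WT Treg samples, a difference of 3.56 (SE 0.27). Cd96, an inhibitory receptor for CD155, was lower at -2.73 (SE 0.23).

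More genes that mark naive and resting T cells were lower than higher in Th17 cells. Of 22 tested, 13 were lower in Th17 cells (59.1%) and 3 higher (13.6%), with a median of -0.68. Among all genes tested 25.6% were lower and 28.5% higher. Klf2, the factor that drives S1pr1 and keeps T cells circulating, measured 5.99, 6.41 and 6.38 in WT Th17 samples, against 9.66, 10.07 and 9.84 in WT Treg samples, and 10.03 on average in naive cells. Its difference was -3.60 (SE 0.17), and the Treg mean of 9.86 was close to the naive mean. Dapl1 and Tdrp were lower in Th17 cells at -2.11 and -2.10, although Dapl1 had Th0 and naive means of 11.53 and 11.65, well above both conditions.

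Of the interferon-stimulated genes 9 of 27 were higher (33.3%) and 2 lower (7.41%), against 28.5% and 25.6% of all genes tested. Their median was 0.06, and both conditions lay below Th0 cells, with medians of -1.58 for Th17 and -2.31 for Treg cells. Oas3, an antiviral enzyme gene, differed by 2.60, Ifih1 (MDA5) by 1.73, Bst2 (tetherin) by 1.57 and Usp18 by 1.44. Clock and nuclear receptor genes were called in both directions, 10 of 21 higher (47.6%) and 8 lower (38.1%), among them Dbp, a circadian output factor, at -2.37 (SE 0.12). Of Trim28 and its partners, 6 of 17 were higher (35.3%) and 8 lower (47.1%). Trim28 itself differed by 0.45 (limma adjusted p = 0.0187), a call that did not hold without Th17 replicate 1 (0.0947) or Treg replicate 2 (0.0858). Uhrf1, which keeps DNA methylation through division, was higher at 2.29 and Cbx5 (HP1α) at 0.91, whereas Dnmt3b, a de novo methyltransferase, and Resf1 were lower at -1.16 and -0.94. In the remaining lists, the IL-6, IL-21 and STAT3 response had 12 of 27 higher (44.4%) and 4 lower (14.8%), with a median of 0.45. The IL-2 and STAT5 response had 10 of 22 higher (45.5%) and 3 lower (13.6%), with a median of 0.17. Cytokine receptor chains with SOCS genes had 9 of 29 higher (31.0%) and 10 lower (34.5%), with a median of 0.01, and effector and memory factors 13 of 35 (37.1%) and 12 (34.3%), with a median of 0.09. In the last pair of lists both shares lay within 10 percentage points of those of all genes tested, so their counts are no result about the lists.

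Several of the largest differences lay outside these lists. Timp1, an inhibitor of matrix metalloproteinases, measured 10.87, 10.59 and 10.36 in WT Th17 samples, against 4.31, 4.28 and 4.16 in WT Treg samples. Cysltr1, a receptor for cysteinyl leukotrienes, measured 11.03, 11.12 and 11.23 in WT Th17 samples, against 4.84, 4.44 and 5.07 in WT Treg samples. Timp1 was 81.7-fold higher at 6.35 (SE 0.25) and Cysltr1 81.5-fold at 6.35 (SE 0.22), with Th0 means of 3.98 for Timp1 and 7.18 for Cysltr1. Lilrb4a, an inhibitory immunoglobulin-like receptor, was 63.5-fold higher at 5.99, with a Th0 mean of 10.18. Gja1, which encodes a connexin of gap junctions, Klri2, a lectin-like receptor gene, and Ak4, a mitochondrial adenylate kinase, were higher by 4.98, 5.02 and 4.93.

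On the Treg side, Glp1r, the receptor for the incretin GLP-1, measured 5.01, 5.16 and 5.20 in WT Th17 samples, against 10.72, 10.09 and 10.12 in WT Treg samples. Abcc8, the sulfonylurea receptor subunit of ATP-sensitive potassium channels, measured 5.09, 4.70 and 4.54 in WT Th17 samples, against 9.75, 9.87 and 9.50 in WT Treg samples. Both are best known from the pancreatic beta cell, and both were lower by 30.5-fold or more in Th17 cells, at -5.18 (SE 0.15, limma adjusted p = 1.97e-20) and -4.93 (SE 0.13, limma adjusted p = 1.77e-21). Their Th0 means, 5.88 and 4.54, were within a log2 unit of the Th17 means. Adamtsl2, a secreted glycoprotein gene, and Ncmap, a myelin protein gene, had the same arrangement, with differences of -4.44 in both and Th0 means of 4.83 and 5.57.

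Other genes on the Treg side were at high levels in naive cells, and their Th17 levels were the low ones. Rasgrp2, the exchange factor that activates Rap1, measured 5.72, 5.10 and 5.75 in WT Th17 samples, against 9.65, 9.46 and 9.70 in WT Treg samples, with a naive mean of 10.63. Klf3, a repressor related to Klf2, differed by -4.17 with a naive mean of 10.64, Ipcef1 by -4.79 with 10.21, St8sia6, a sialyltransferase gene, by -4.05 with 10.65, and Cd7 by -4.60 with 10.01. Tlr7, the sensor of single-stranded RNA, differed by -4.55 and P2ry1, an ADP receptor gene, by -4.74. Fermt1, which encodes the integrin activator kindlin-1, measured 6.29, 4.30 and 3.93 in WT Th17 samples, against 9.33, 9.64 and 9.63 in WT Treg samples, a difference of -4.70 (SE 0.31); without Th17 replicate 1, the highest Th17 sample, it was -5.42.

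Loci of the miR-181 family were lower in Th17 cells. Of 182 tested symbols for microRNA genes, 16 were higher (8.79%) and 48 lower (26.4%), and the lower share is close to the 25.6% of all genes tested. The miR-181 genes were picked from them after their values were seen, and their probe sets read precursor or primary RNA rather than the mature molecule. The mature 5p sequences, from RefSeq on GRCm38.p6, are shown because the family shares 1 seed (bases 2 to 8, in capitals).
mmu-miR-181a-5p (chr1:137966468-137966490 and chr2:38852741-38852763): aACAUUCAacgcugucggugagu
mmu-miR-181b-5p (chr1:137966650-137966673 and chr2:38853845-38853868): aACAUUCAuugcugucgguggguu
mmu-miR-181c-5p (chr8:84178924-84178945): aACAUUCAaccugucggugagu
mmu-miR-181d-5p (chr8:84178759-84178781): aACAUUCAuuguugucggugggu
All 4 carry ACAUUCA, so the loci on chromosomes 1, 2 and 8 that make them encode molecules with the same seed. Mir181b-2 measured 3.98, 4.03 and 3.80 in WT Th17 samples, against 8.90, 8.21 and 8.56 in WT Treg samples. Mir181b-1 measured 6.06, 6.004 and 5.62 in WT Th17 samples, against 9.001, 9.29 and 9.16 in WT Treg samples. Neither gene's groups overlapped, and the differences were -4.62 (SE 0.17) and -3.26 (SE 0.31). Mir181a-2, Mir181c and Mir181d differed by -2.71, -1.64 and -0.59, each called lower. Mir181a-1 did not pass the filter on low values, at 3.76, 3.64 and 3.86 in WT Th17 samples and 4.20, 4.58 and 4.43 in WT Treg samples. Mir210, the microRNA gene that hypoxia is known to induce, was higher at 0.64 (limma adjusted p = 0.0473), with overlapping groups. Its call did not hold without Th17 replicate 2 or 3 or Treg replicate 2 or 3 (adjusted p 0.227, 0.172, 0.0868 and 0.188) or with the block in the 6 samples alone (0.115).

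**Figure D4:**
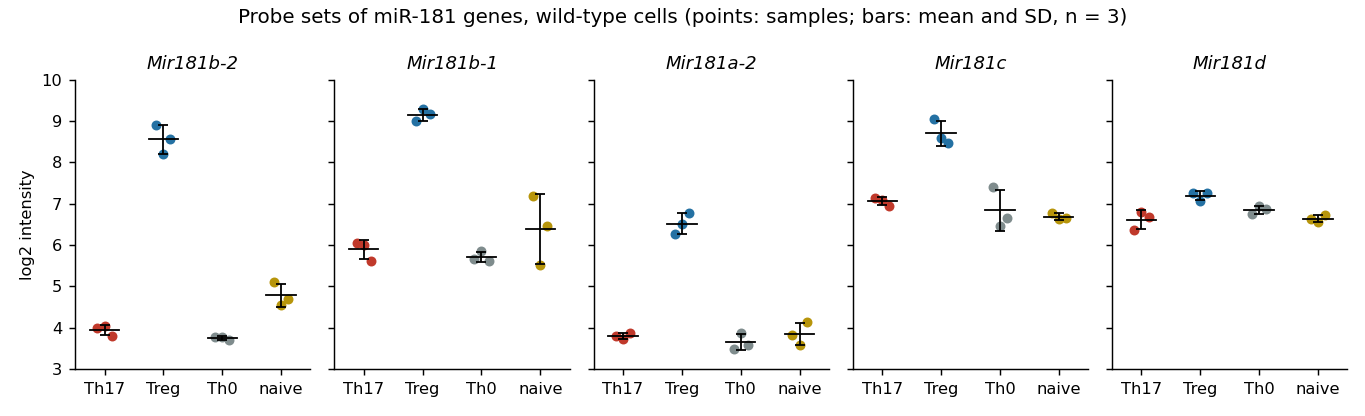
Log2 intensity (y axis) of probe sets for 5 miR-181 genes in WT Th17, WT Treg, WT Th0 and WT naive cells (x axis), with points for samples and bars for the mean and SD of 3. Treg cells are highest in every panel, from a mean of 9.15 for Mir181b-1 to 6.52 for Mir181a-2, and the Th17 points of Mir181b-2, Mir181b-1 and Mir181a-2 lie near those of Th0 cells.

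Some adjacent genes both had large differences. In the gene order of RefSeq, 21 adjacent pairs of protein-coding genes had both members called and differing by 4-fold or more. Of these pairs, 18 went in the same direction and 3 in opposite directions. Of all single genes tested, 3.0% reached this size upward and 0.986% downward. The share over all adjacent tested pairs was not computed, so these counts are no result about adjacent genes. The pairs were listed after the values were seen. Il17a lies beside Il17f, Il12rb2 beside Il23r, and Il2 beside Il21, all higher in Th17 cells. On chromosome 1, Il1r2 (4.38), Il1r1 (3.11) and Il1rl2 (2.05) form a run of IL-1 receptor genes, all higher. On chromosome 6, Klrc3 (3.64), Klrc2 (3.54) and Klrc1 (4.36) form a run of NKG2 receptor genes, whose sequences are related, and whether their probe sets share signal was not tested. On chromosome 11, Csf2 (2.72) and Il3 (-2.66), which encode related growth factors for myeloid cells, lie side by side with opposite differences.

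Markers of other cells were read as a check on the sort. Of 10 CD8 and cytotoxic genes with a row 9 passed the filter on low values, 3 of them higher (33.3%) and 2 lower (22.2%) in Th17 cells. These shares are near the 28.5% and 25.6% of all genes tested, so the counts are no result about the list. Of 9 B cell genes 5 passed, with 2 higher (40.0%) and 1 lower (20.0%). Of 15 myeloid genes 6 passed, with 1 higher (16.7%) and 2 lower (33.3%). Of 7 genes for NK and gamma-delta T cells 3 passed and of 5 erythroid and platelet genes 2, and none of these was called. The log2 of the list's summed intensity for CD8 genes ran from 10.51 to 10.90 in Th17 samples and from 9.93 to 10.43 in Treg samples. For B cell genes it ran from 11.42 to 11.57 in Th17 samples and from 11.92 to 12.17 in Treg samples. For myeloid genes it ran from 9.78 to 10.25 in Th17 samples and from 9.73 to 9.84 in Treg samples. Of the 15 myeloid genes, 12 lay below the table-wide median of 5.26 in each condition. Of the 9 B cell genes, 5 in Th17 and 8 in Treg cells lay below it, so the Treg sum rests mainly on 1 gene. The median level of the B cell genes went the other way, from 4.93 to 5.15 in Th17 samples and from 4.25 to 4.52 in Treg samples.

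Ebf1, a B cell factor, measured 8.32, 8.85 and 8.45 in WT Th17 samples, against 4.25, 4.52 and 4.51 in WT Treg samples. H2-Ab1, an MHC class II chain, was 36.9-fold higher in Th17 cells, at 5.21. Of the other B cell genes, 2 were not called and 4 did not pass the filter on low values. Ms4a1 (CD20), which did not pass, averaged 3.23 in Th17 and 3.25 in Treg samples, and Pax5, the B cell master factor, which was not called, 5.04 in Th17 and 5.01 in Treg samples. Klrc1 and Klrd1, which encode the NKG2A and CD94 chains of 1 receptor, were higher by 4.36 and 3.90, and Ly6g, a neutrophil marker, by 3.44. Lyz2 (lysozyme) averaged 3.76 in Th17 and 4.06 in Treg samples. Lower in Th17 cells were the cytotoxic genes Nkg7 at -2.20 and Prf1 at -1.51, Itgam (CD11b) at -1.19, Cd209a at -0.43 and Ighm at -1.67; Ighm had 7 probe sets, and their mean differed by -0.09 (limma adjusted p = 0.351). Cd209a lost its call without Th17 replicate 1 (limma adjusted p = 0.0818) or Treg replicate 2 (0.074). Of 7 helper T cell genes 5 were higher (71.4%) and 2 lower (28.6%) in Th17 cells, against 28.5% and 25.6% of all genes tested. Cd4, Cd28, Zap70 and Cd3d were higher by 0.74, 0.59, 0.56 and 0.49. The part of other cells in the differences was not tested.

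The same comparison in TRIM28KO cells used 6 other arrays, and the main lineage differences were found there as well. Of 13082 genes, 6816 (52.1%) were called, 3592 (27.5%) higher and 3224 (24.6%) lower in KO Th17 than in KO Treg cells. Across genes the KO and WT differences correlated at Pearson's r of 0.89 (13082 genes, which are not independent replicates). Of the 1339 genes higher by 2-fold or more in WT Th17 cells, 1206 (90.1%) were called in the same direction in KO, and of the 606 lower, 564 (93.1%). All 45 genes higher beyond 16-fold were called in KO too, and 15 of the 16 lower.

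Il17f measured 11.91, 11.71 and 11.28 in KO Th17 samples, against 5.03, 4.85 and 5.13 in KO Treg samples, a difference of 6.63. Foxp3 measured 8.05, 7.73 and 7.35 in KO Th17 samples, against 12.11, 11.93 and 12.09 in KO Treg samples, a difference of -4.33. For neither gene was the difference between KO and WT called, at -0.25 (SE 0.32, limma adjusted p = 0.782) and 0.77 (SE 0.50, limma adjusted p = 0.465). The metabolic lists were higher in KO as in WT cells. In KO Th17 cells 29 of 31 glycolysis and hypoxia genes and 22 of 23 sterol genes were called higher, against 27.5% of all genes tested. In the proliferation list 12 of 29 were called higher in KO against 27 of 29 in WT, with medians of 0.91 and 1.55, and 1 of the 29 differed between the genotypes by the test of the difference.

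The difference itself, KO minus WT of Th17 minus Treg, was called for 632 genes (4.83%), 375 higher (2.87%) and 257 lower (1.96%). Leaving out 1 WT sample moved this count by over 1.5 times in 4 cases, to 968 without Treg replicate 1, 421 without Th17 replicate 3, 401 without Treg replicate 2 and 393 without Treg replicate 3. With array weights it was 2881, with 1350 higher and 1531 lower, which also turned the balance of directions. Among the genes that differed by 2-fold or more between the WT conditions, 240 were among them. Fermt1, the exception among the 16 genes beyond 16-fold, measured 3.92, 4.14 and 3.93 in KO Th17 samples and 4.30, 4.25 and 4.76 in KO Treg samples, so the KO Treg samples did not reach the WT Treg level, and the difference changed by 4.26 (SE 0.44, limma adjusted p = 1.25e-07). Without WT Th17 replicate 1 that change was 4.98, and with array weights 4.89. Abcc8 changed by 2.47 (SE 0.18), with 6.98, 7.29 and 6.75 in KO Treg samples. Ikzf2 changed by 2.05 (SE 0.42), with 7.82, 7.56 and 8.52 in KO Treg samples against 9.62, 9.86 and 10.29 in WT Treg samples, while its Th17 levels stayed low in both genotypes.

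Some Th17 genes had larger or smaller differences in KO cells. Il1r1 measured 9.88, 9.67 and 9.77 in KO Th17 samples, against 3.82, 3.81 and 3.82 in KO Treg samples, and its difference grew by 2.85 (SE 0.28, limma adjusted p = 4.86e-08). Il23r grew by 1.22 (SE 0.31, limma adjusted p = 0.0165). Ccl20, in contrast, measured 5.53, 5.51 and 5.19 in KO Th17 samples and 5.34, 5.36 and 5.27 in KO Treg samples, groups that overlapped, and its difference changed by -2.61 (SE 0.33, limma adjusted p = 5.95e-06). M1ap, Clec12a, Slc44a5 and Fxyd7 had the largest positive changes after Fermt1 among the genes considered for naming. All 4 were highest in KO Th17 cells among the 4 groups. Slc44a5 measured 6.94, 7.09 and 6.99 in KO Th17 samples, against 3.41, 3.42 and 3.21 in WT Th17 samples. Among those genes Pcp4 had the largest negative change, -4.02 (SE 0.21), with 10.78, 10.88 and 10.27 in KO Treg samples, against 6.20, 6.07 and 5.998 in WT Treg samples. Myb, a factor of immature and memory T cells, reversed: it measured 8.07, 8.08 and 8.21 in KO Th17 samples, against 9.66, 9.43 and 8.72 in KO Treg samples, while in WT cells it measured 9.52, 9.58 and 9.70 in Th17 samples, against 8.55, 7.60 and 7.98 in Treg samples.

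**Figure D5:**
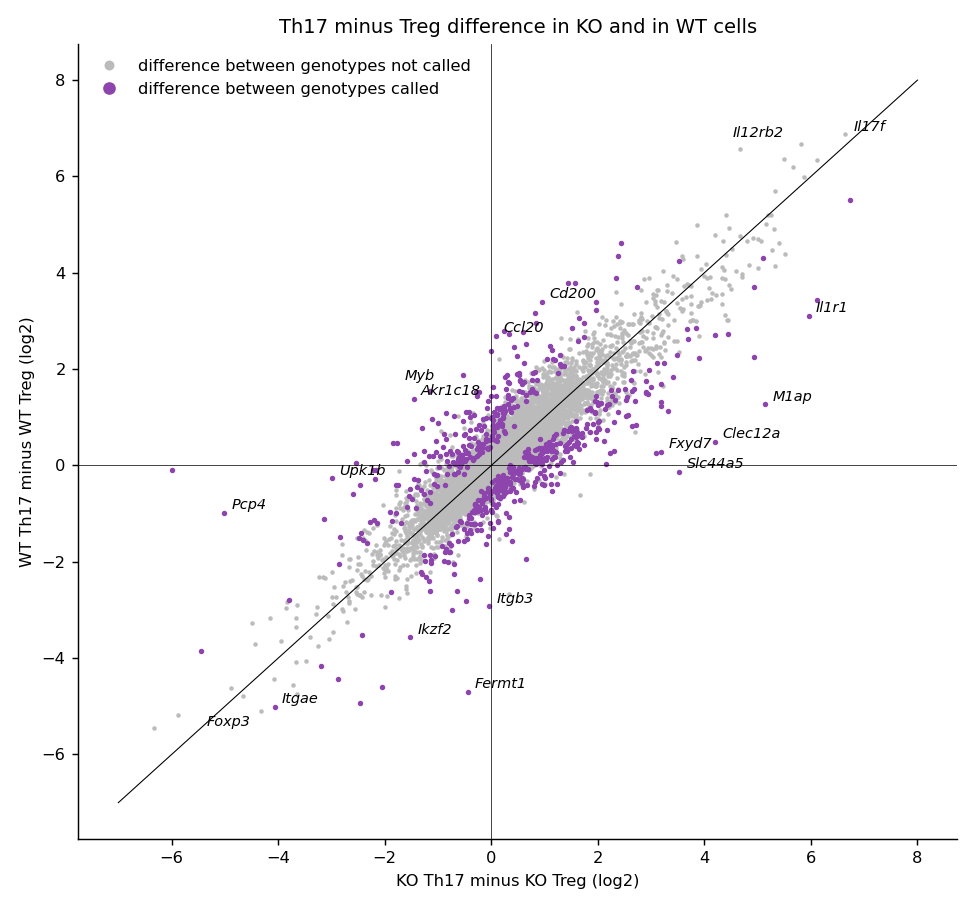
Each point is 1 of the 13082 genes, with KO Th17 minus KO Treg on the x axis and WT Th17 minus WT Treg on the y axis, both log2, and the line marks equal values. Purple points are the 632 genes whose difference was called different between the genotypes. Il17f and Il12rb2 lie near the line at the top right and Foxp3 near it at the bottom left, while Fermt1 lies at -0.44 in KO and -4.70 in WT.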

How the data were processed

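RNA of 36 samples in 12 groups of 3 was measured on Affymetrix GeneTitan arrays, per the labels. The deposited values are log2 intensities per probe set, made by the authors with RMA in the oligo package in R 3.1.0, per the submitters' processing notes; RMA corrects background and makes the arrays' distributions alike, which can hide a shift of all genes. Values ran from 2.05 to 13.5. The platform table gave 1 symbol to 23521 of 41345 probe sets, several to 1814 and none to 16010. Where a gene had several probe sets (1082 of 22180 genes), the one with the highest mean was kept. The 13082 genes tested exceeded 5.26, the median of the whole table, in 3 or more samples.

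limma 3.58.1 (R 4.3.3) fitted 1 mean per group over all 36 samples, with 24 residual degrees of freedom, moderated variances and Benjamini-Hochberg adjustment. The procedure was tested on simulated data. Members and gene lists were chosen with earlier results of these data known, so no list is independent evidence. Named genes were the 15 highest and 15 lowest called differences without overlap (predicted genes, microRNAs and receptor segments aside), all tested members of the Th17 and Treg lists, up to 4 called members of each other list, the 5 highest and 5 lowest changes between genotypes, and a fixed set of lineage genes. Same-numbered WT Th17 and WT Treg samples deviated together from their group means (r of 0.21, 0.21 and 0.11 over genes); for samples of different numbers r ran from -0.24 to 0.13, whose upper end lies above the lowest same-number value. These values do not settle whether the labels' numbers pair the WT samples. The fit reported has no replicate block, and the blocked fits are alternatives. In KO cells r was 0.17, 0.096 and 0.18. Alternatives varied the filter, normalization, probe sets, prior, array weights, samples fitted, replicate block and samples left out. Motif positions were found by exact match with Python 3.11.15. Genes without a row of exactly 1 symbol are not analysed here.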

Additional observations from a re-analysis of the deposited data

Results flagged for a closer look

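The difference between Th17 and Treg cells was not the same in both genotypes for 632 genes, by the test of the difference itself (KO minus WT of Th17 minus Treg, limma adjusted p under 0.05). The values below are that change on the log2 scale for each such gene named here. A positive change means a Th17 minus Treg difference that lies further to the Th17 side in KO cells. The cause of these changes was not tested.

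Among Th17 genes, positive changes were those of Il1r1 at 2.85, Csf2 at 1.71, Il23r at 1.22, Abcb1b at 1.36, Rora at 1.10, Batf at 0.99 and Ikzf3 at 0.84, and negative changes were those of Ccl20 at -2.61, Slamf6 at -1.41 and Tnfrsf13b at -1.08. Rora, which was not called in WT cells, measured 8.12, 7.93 and 7.66 in KO Th17 samples, against 6.42, 6.39 and 6.59 in KO Treg samples. Among Treg genes the changes were 2.05 for Ikzf2, 1.95 for Tigit, 1.19 for Selp, 0.94 for Itgae, -1.10 for Izumo1r and -1.90 for Gpr83.

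Among the genes lowest in WT Th17 against WT Treg cells the changes were 4.26 for Fermt1, 2.55 for Cd7, 2.47 for Abcc8, 1.56 for Ncmap and 0.98 for Klf3. These genes were chosen for their WT difference. In surface and adhesion genes they were 2.89 for Itgb3, 1.23 for Tnfrsf8, 0.80 for Itga3, -1.56 for Ltb4r1 and -2.45 for Cd200. Vegfa changed by -2.36 and the Th2 cytokine gene Il4 by -1.59, and the interferon-stimulated genes Usp18 and Ifih1 by -1.72 and -1.42. Among markers of other cells the changes were 2.68 for Ly6g, 0.74 for Ighm, -0.95 for Itgam and -0.97 for Prf1.

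The largest changes by the naming rule, beside Fermt1, were 3.87 for M1ap, 3.70 for Clec12a, 3.67 for Slc44a5 and 2.91 for Fxyd7 on the positive side, and -4.02 for Pcp4, -2.84 for Akr1c18, -2.72 for Upk1b, -2.70 for Myb and -2.61 for Ccl20 on the negative side. Akr1c18, an aldo-keto reductase gene, measured 4.91, 4.71 and 4.98 in KO Th17 samples, against 6.84, 6.57 and 5.55 in KO Treg samples, and in WT cells 10.20, 9.41 and 10.40 in Th17 samples, against 9.55, 7.94 and 8.37 in Treg samples. Upk1b, a uroplakin gene, measured 4.35, 4.19 and 4.13 in KO Th17 samples, against 7.39, 7.56 and 6.68 in KO Treg samples, and in WT cells 3.94, 4.23 and 4.11 in Th17 samples, against 4.38, 4.34 and 4.36 in Treg samples. Upk1b was thus high in KO Treg samples alone among the 4 groups, whereas Akr1c18 was lower in KO than in WT samples of both conditions. With the mean of its 2 probe sets the change of Myb was -1.74, and with array weights that of Akr1c18 was -3.55.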

How the results depend on the processing

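Of 188 named genes, 163 kept the direction and the call of WT Th17 minus WT Treg under every one of the 20 alternatives that gave them a value (6 had none under the stricter filter), 183 kept the direction, 20 changed call under at least 1 alternative and 5 turned direction. The 5 that turned were Prdm1, Il2ra, Gpr83, Bach2 and Ifng, none of which was called. Il2ra was -0.0248 with quantile normalization repeated, -0.0121 with cyclic loess and -0.0023 with array weights, and ran from -0.003 to 0.0366 with 1 sample left out. Gpr83 was 0.0461 with array weights and ran from -0.5192 to 0.0457. Bach2 was -0.0505 with array weights and ran from -0.0167 to 0.0926, and Prdm1 ran from -0.0151 to 0.1107. Ifng was 0.0724 with quantile normalization, 0.0731 with samples centred on their medians and 0.1455 with cyclic loess, and ran from -0.161 to 0.141. When all probe sets were tested, named or not, which is a wider table, 10776 were called against 7077 genes in the analysis reported, and 3088 against 1945 at 2-fold or more. Under the other alternatives the count of 7077 ran from 5906 to 8520, and with 1 sample left out from 6370 to 6935, or from 1937 to 2064 at 2-fold or more. In KO cells the count of 6816 ran from 6105 to 6570 with 1 sample left out. The 632 genes of the genotype test were 2881 with array weights, an increase whose cause was not tested, and ran from 393 to 968 with 1 sample left out. The share of called genes that were higher, 52.8% as deposited, was 58.0% with quantile normalization, 61.6% with median centring, 63.4% with cyclic loess and 44.0% over all probe sets, where the median of all features was -0.1128. With the replicate number as a block the counts were 7281, 1947, 7035 and 721 in all samples, in the order WT, WT at 2-fold, KO and genotype test, and 6835, 1947, 6363 and 560 in the groups compared. The replicate block changed no other named call than those given beside their genes and Clec12a. The limma adjusted p of Clec12a, 0.0505, became 0.0306 with the block in all samples and 0.00621 in the 6 samples alone. The 3 arrays of a group, and signals near the dim end of the scale, limit what small differences can show.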

Other observations

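Genes outside the lists were also seen among the adjacent pairs described above, and were picked after their values were seen. Both metallothionein genes on chromosome 8, Mt1 (3.87) and Mt2 (3.61), which bind zinc and other metals, were higher in WT Th17 than in WT Treg cells. So were Hspa1a (2.04) and Hspa1b (2.38), inducible heat shock proteins whose sequences are nearly identical, so their probe sets may not tell them apart. The neighbours Tmem176a (2.69) and Tmem176b (2.14), membrane protein genes, were higher, and so were Axl (2.01), a receptor tyrosine kinase, and Ecm1 (2.38), an extracellular matrix protein. On the Treg side, Ifi208 (-2.07) and Ifi209 (-3.08), which belong to the interferon-inducible p200 family, were lower in Th17 cells, and beside Il3 the acyl-CoA synthetase gene Acsl6 (-2.99) was lower too.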
